A study of Mus musculus with 9 samples.

Results

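The genes described here are 51 mouse genes that type I interferon is known to induce: sensors of foreign nucleic acid, transcription factors that carry the interferon signal, and the antiviral effectors they switch on. They were listed by name for their known roles, at a time when earlier results of these data were known, and all 51 were found by symbol among the 53465 genes of the counts table. Grouped by known role they comprised 6 sensors, 4 factors, 5 genes of the ISG15 system, 5 IFIT and IFITM genes, 6 genes of the OAS family and PKR, 10 other direct antiviral effectors, 4 PARP and DTX3L genes and 11 other induced genes. RNA came from mouse adult fibroblasts (MAFs), in 3 libraries from cells given DPI for 24 h, 3 from cells given DPI for 72 h and 3 from control cells. The compound, abbreviated DPI in the labels, is read here as diphenyleneiodonium, which blocks enzymes that carry a flavin cofactor, since the series concerns the flavin of respiratory complex I. Strain, genotype, dose, vehicle and the culture time of the controls were not given in the sources used here, so time in culture and DPI cannot be told apart in any comparison below. Whether replicate libraries stem from separate cultures is not stated, so p-values measure only the spread among libraries, part or all of which may be technical.

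Cells detect foreign or misplaced RNA and DNA with cytosolic sensors, which lead to the production of type I interferon. Interferon binds its receptor on the same or neighbouring cells, the kinases JAK1 and TYK2 are activated, and a complex that includes STAT2 and IRF9 binds a promoter sequence called the interferon-stimulated response element. The genes switched on this way include the sensors and factors themselves, so that the pathway amplifies its own components, and fibroblasts keep a low level of many of these genes without infection.

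Total counts ran from 15292736 to 17923656 per library. Expression is given as CPM (each gene's count scaled to a common library size) after TMM scaling, and a gene is called lower or higher when its adjusted p from edgeR's quasi-likelihood test over 14088 genes is under 0.05. Control replicate 2 stood apart: its counts differed from those of controls 1 and 3 by a chi-square per degree of freedom of 31.3 and 26.6, against 4.32 between controls 1 and 3. It held the lowest control value for 35 of the 49 tested interferon-stimulated genes. Of 12 fibroblast markers, Col1a1, Col1a2 and Vim were abundant in every library, while Thy1, Lum and Postn were at or near 0. The summed level of the 12 was 10100 to 10500 CPM at 24 h, 9340 to 10700 CPM at 72 h and 5670 to 5900 CPM in controls. Col1a1, Col1a2, Vim, S100a4 and Fbn1 were called higher than in controls at both times. Col3a1, Pdgfra, Pdgfrb and Dcn were called higher at 24 h and did not pass at 72 h. The 9 lymphocyte markers summed to at most 0.426 CPM in any library, with Cd3e, Cd3g and Cd8a at 0 throughout. The 13 macrophage and dendritic cell markers summed to 9.19 to 10.4 CPM at 24 h, 6.98 to 7.89 CPM at 72 h and 7.23 to 9.71 CPM in controls, with Adgre1, Tyrobp and Aif1 at 0 throughout. Of these 13, Cd68 averaged 4.19 CPM at 24 h, 2.42 CPM at 72 h and 4.33 CPM in controls. It was called lower at 72 h (adjusted p = 0.0375). Cd14 averaged 4.25, 3.65 and 3.17 CPM in the same order and did not pass. Itgax went the other way on few reads, with means of 0.806, 0.815 and 0.206 CPM. All DPI libraries lay above all controls for Itgax. Its log2 fold change of 1.97 at both times did not pass (adjusted p = 0.0751 at 24 h and 0.136 at 72 h). The 7 endothelial markers summed to 3.17 to 4.16 CPM at 24 h, 1.1 to 1.85 CPM at 72 h and 1.82 to 1.98 CPM in controls, and the 9 epithelial markers to 5.02 to 5.97, 9.51 to 10.1 and 4.8 to 6.56 CPM in the same order of groups. In that order the endothelial marker Kdr averaged 2.95, 0.703 and 1.49 CPM. Of the epithelial markers, Krt10 averaged 4.0, 3.32 and 3.71 CPM, Krt8 1.21, 3.87 and 1.07 CPM and Krt14 0.0392, 1.78 and 0.479 CPM. The part of these marker levels in the results was not tested. In bulk libraries, fewer cells that express a gene and less RNA of it per cell cannot be told apart.

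Interferon-stimulated genes were lower after 24 h of DPI and lower again after 72 h. At 24 h, 34 of the 49 tested genes fell against control, 3 rose and 12 did not pass, with a median log2 fold change of -0.77 and a range of -3.01 to 0.53. The number that rose was 1 without DPI 24 h replicate 1. Among all genes tested, 12.3% were called lower and 12.4% higher in that comparison, with a median of -0.006. At 72 h, 43 of 49 fell against control, 0 rose and 6 did not pass, with a median of -1.99 and a range of -5.96 to 0.00, against 3.83% of all genes called lower, 4.73% called higher and a median of -0.005. With a log2 fold change of -1 or below required in addition, 18 genes were lower at 24 h and 36 at 72 h. Among all 14088 genes tested, 248 were lower by that rule at 24 h and 141 at 72 h.

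The stepwise fall was visible in single libraries. Summed over the 51 genes, expression was 1460, 1640 and 1570 CPM in the DPI 24 h libraries, 935, 935 and 965 CPM in the DPI 72 h libraries and 2560, 2150 and 2420 CPM in controls. The 3 groups did not overlap, and control replicate 2 was the lowest control. For 34 of the 49 tested genes, all 72 h libraries lay below all 24 h libraries, which lay below all controls, an order found in 0.916% of all genes tested. Separation of a single DPI group from controls was common. All 24 h libraries lay below all controls in 20.1% of all genes tested and above them in 20.4%. For the 72 h libraries these shares were 13.2% and 13.9%. The 6 genes that did not pass at 72 h were Tmem173, Ifitm2, Isg20, Samhd1, Znfx1 and Tor3a.

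**Figure D1:**
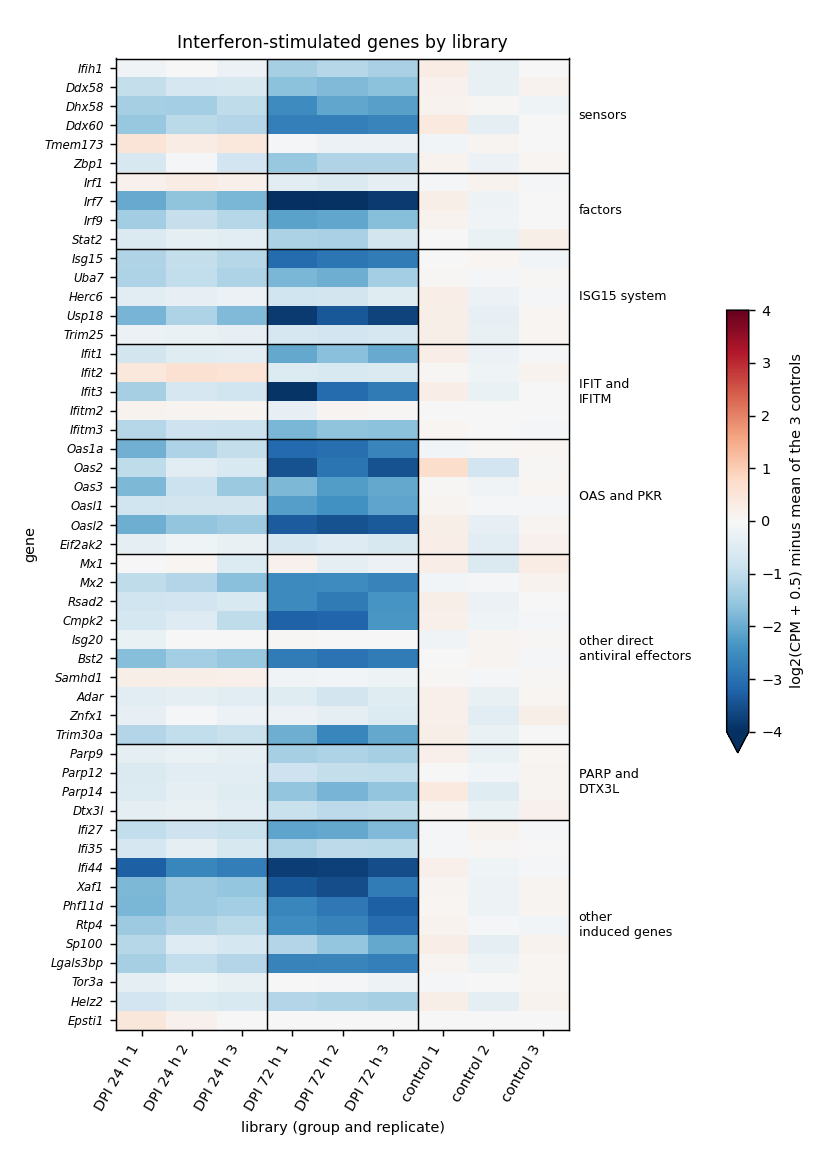
Colour gives log2(CPM + 0.5) minus the mean of the 3 controls for each of the 51 genes (rows, by role) in each of the 9 libraries (columns), with 1 value below the end of the scale at -4. Most rows are pale blue in the 3 DPI 24 h libraries and darker blue in the 3 DPI 72 h libraries, and control replicate 2 is bluer than the other controls in many rows.

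The filter on low counts left out 2 of the 51 genes. Mx1 had 5, 6 and 1 counts at 24 h, 7, 2 and 3 counts at 72 h and 8, 1 and 8 counts in controls. Epsti1 had 3, 1 and 0 counts at 24 h and 0 counts in every other library. A further 6 genes passed the cutoff of that filter in all controls but not in every DPI library. For Zbp1 and Oas3, presence among the tested genes rests on their control level. Oas1a, Oas2, Mx2 and Sp100 also passed the cutoff in all DPI 24 h libraries, but not in every DPI 72 h library. The other 43 genes passed the cutoff in all 9 libraries, and of these 31 fell and 3 rose at 24 h (median log2 fold change -0.74), while 37 fell and 0 rose at 72 h (median -1.74).

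Per kilobase of exonic length, which allows levels to be set side by side between genes, the most abundant transcripts in controls were those of Bst2 at 208 CPM per kb, Ifitm3 at 178, Ifi27 at 98.6, Isg15 at 93.6 and Ifitm2 at 81.8. At 24 h the same scale gave Bst2 72.2, Ifitm3 92.0, Ifi27 52.7, Isg15 43.7 and Ifitm2 88.5 CPM per kb. At 72 h Bst2 was at 28.3, Ifitm3 at 54.8, Ifi27 at 24.9, Isg15 at 11.8 and Ifitm2 at 79.4 CPM per kb. Ifitm2, the fifth of these in controls, was thus the most abundant at 72 h, and Bst2, the first in controls, the third.

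The promoters of these genes often carry the response element that IRF9 and other interferon regulatory factors bind. Windows of 300 bases, from 250 before to 50 after the start, were available from RefSeq (GRCm38.p6) for 39 of the 51 genes, and Dhx58, Ifi27, Mx1, Mx2, Oas2, Parp14, Parp9, Rtp4, Tmem173, Tor3a, Usp18 and Zbp1 had none. The element's core, GAAANNGAAA, or TTTCNNTTTC where it lies on the other strand, was present in windows of 15 of the 39 genes (38.5%), against 1079 of 27025 genes with a window (3.99%). Counted by window, 32.7% of 49 windows held it, against 3.44% of 32851 windows. The 250 bases before the start of 4 genes are printed below, on the gene's strand, with each core in capitals. They show a run of overlapping cores (Isg15), separate cores (Ifit3), a single core (Rsad2) and a single core in a gene whose level stayed within a narrow range (Ifitm2).
Isg15 (chr4:156200819-156201068, minus strand): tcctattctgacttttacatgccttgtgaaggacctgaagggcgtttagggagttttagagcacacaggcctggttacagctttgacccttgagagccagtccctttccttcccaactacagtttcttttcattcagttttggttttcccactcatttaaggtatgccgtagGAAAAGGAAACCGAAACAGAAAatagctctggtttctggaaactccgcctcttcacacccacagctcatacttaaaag
Ifit3 (chr19:34583279-34583528, plus strand): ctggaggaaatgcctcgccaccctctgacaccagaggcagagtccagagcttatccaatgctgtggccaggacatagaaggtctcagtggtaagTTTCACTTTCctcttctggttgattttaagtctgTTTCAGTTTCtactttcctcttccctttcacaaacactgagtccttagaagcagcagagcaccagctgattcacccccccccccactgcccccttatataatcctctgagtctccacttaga
Rsad2 (chr12:26456453-26456702, minus strand): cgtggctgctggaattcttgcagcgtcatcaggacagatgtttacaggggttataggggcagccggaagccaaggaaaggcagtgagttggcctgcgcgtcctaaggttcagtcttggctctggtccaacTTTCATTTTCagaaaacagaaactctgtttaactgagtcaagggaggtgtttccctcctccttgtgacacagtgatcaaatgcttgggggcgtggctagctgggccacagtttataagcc
Ifitm2 (chr7:140955962-140956211, minus strand): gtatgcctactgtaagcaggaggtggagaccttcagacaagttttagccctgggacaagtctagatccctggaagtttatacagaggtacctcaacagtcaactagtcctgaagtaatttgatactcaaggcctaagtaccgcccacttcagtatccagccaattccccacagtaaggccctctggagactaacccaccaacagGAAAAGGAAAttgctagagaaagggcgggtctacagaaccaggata
The 22 capital bases of Isg15 hold 3 overlapping cores whose first base is at position -78 from the start. Of the 15 genes with a core, 14 were lower at 72 h and 1, Ifitm2, did not pass, while 20 genes without a core in the window were lower, 3 did not pass and 1 was not tested. A core of the interferon-gamma activated site, TTCNNNGAA, which reads the same on both strands, was found in windows of 10 of the 39 genes (25.6%), Irf1 among them, against 9.55% of all genes with a window. A match is a description of the letters and does not show that a factor was bound.

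Among the sensors, 3 of 6 fell at 24 h, 1 rose and 2 did not pass, with a median log2 fold change of -0.78. At 72 h 5 of 6 fell (median -2.04). Zbp1 was tested on the strength of its control level. Of the other 5 sensors 3 fell at 24 h and 4 at 72 h, with medians of -0.76 and -1.71. The RNA helicase RIG-I is encoded by Ddx58 and senses uncapped viral RNA. Ddx58 had 52.1, 62.9 and 64.6 CPM at 24 h, 32.2, 29.2 and 31.7 CPM at 72 h and 112, 81.4 and 111 CPM in controls. Its log2 fold change against control was -0.76 ± 0.12 (SE) at 24 h (adjusted p = 0.00122) and -1.71 ± 0.13 at 72 h (adjusted p = 1.55e-05), and the 3 groups did not overlap. Ifih1 encodes MDA5, which senses long double-stranded RNA. It had 21.3, 23.1 and 19.8 CPM at 24 h, 8.93, 10.3 and 9.22 CPM at 72 h and 28.9, 19.1 and 23.2 CPM in controls. Its change at 24 h, -0.15 ± 0.14, did not pass (adjusted p = 0.478) and the libraries overlapped with controls, while at 72 h it fell by 1.32 ± 0.15 on the log2 scale (adjusted p = 0.000214).

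Dhx58 encodes LGP2, a helicase that regulates RIG-I and MDA5. It had 9.11, 8.83 and 11.3 CPM at 24 h, 3.64, 5.19 and 4.77 CPM at 72 h and 25.9, 24.1 and 20.6 CPM in controls, with log2 fold changes of -1.27 ± 0.15 and -2.38 ± 0.16 (adjusted p = 0.000145 and 7.51e-06). Ddx60, a helicase linked to RIG-I signalling, had 5.81, 8.1 and 7.44 CPM at 24 h, 2.19, 2.22 and 2.39 CPM at 72 h and 23.1, 13.2 and 17.6 CPM in controls. At 72 h it stood at 12.6% of the control mean, the lowest share among the 5 sensors other than Zbp1. Zbp1, which senses nucleic acid in the left-handed form and can trigger cell death, was close to the limit of these libraries, with 7, 14 and 6 counts at 24 h, 0, 2 and 2 counts at 72 h and 18, 13 and 16 counts in controls. Its change did not pass at 24 h (-0.80 ± 0.56, adjusted p = 0.34). It was called lower at 72 h (-3.38 ± 0.73, adjusted p = 0.0145), a call lost without DPI 72 h replicate 2 (adjusted p = 0.0512) and given no adjusted p by DESeq2.

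Tmem173 moved apart from the other sensors. It encodes STING, the adaptor that answers the cyclic dinucleotide made by the DNA sensor cGAS. Tmem173 had 21.5, 18.5 and 20.1 CPM at 24 h, 13.9, 12.4 and 12.4 CPM at 72 h and 13.6, 15.9 and 15.1 CPM in controls. All 24 h libraries lay above all controls, and the gene rose by 0.43 ± 0.10 on the log2 scale (adjusted p = 0.0105). That call was lost without DPI 24 h replicate 1 (0.38, adjusted p = 0.0504). At 72 h its change against control was -0.21 ± 0.10 (adjusted p = 0.277), with overlapping libraries, and it was lower than at 24 h by a log2 difference of -0.64 ± 0.10 (adjusted p = 0.00131).

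The 4 factors differed widely in the size of their change. Irf7 (GRCm38 chr7:141262706-141266481), the regulator that amplifies interferon production, had 10.2, 13.8 and 11.7 CPM at 24 h, 2.06, 2.29 and 2.58 CPM at 72 h and 50.5, 37.0 and 42.9 CPM in controls. It stood at 27.4% of the control mean at 24 h and 5.31% at 72 h, with the 3 groups far apart. Its exons share 45 bases with Phrf1 on the opposite strand, and reads there cannot be assigned without a strand setting. Irf9, the DNA-binding partner of STAT2, had 18.9, 26.7 and 22.4 CPM at 24 h, 11, 11.5 and 15.2 CPM at 72 h and 55.4, 45.6 and 51.0 CPM in controls. Its log2 fold changes were -1.16 ± 0.14 at 24 h (adjusted p = 0.000192) and -2.01 ± 0.15 at 72 h (adjusted p = 1.42e-05), again without overlap.

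Stat2 had 30.5, 35.9 and 33.5 CPM at 24 h, 18.8, 18.5 and 27.5 CPM at 72 h and 47.0, 38.4 and 54.2 CPM in controls. Its fall at 24 h was close to the threshold (-0.48 ± 0.16, adjusted p = 0.0468) and lost its call without controls 1 or 3, any DPI 24 h library or DPI 72 h replicates 1 or 2 (adjusted p from 0.0518 to 0.153). At 72 h Stat2 fell by 1.10 ± 0.16 on the log2 scale (adjusted p = 0.00142). Irf1, a transcription factor that acts early in the response, had 58.7, 64.4 and 60.6 CPM at 24 h, 38.1, 34.6 and 41.0 CPM at 72 h and 49.6, 58.2 and 49.4 CPM in controls. All 24 h libraries were above all controls, yet the change did not pass (0.22 ± 0.09, adjusted p = 0.0821), and it did without control replicate 2 (0.31, adjusted p = 0.00601). At 72 h Irf1 fell by 0.47 ± 0.09 on the log2 scale (adjusted p = 0.00663).

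ISG15 is a ubiquitin-like protein that is joined to other proteins during the interferon response. Its gene (GRCm38 chr4:156199424-156200818), whose promoter is printed above, had 30.7, 36.2 and 32.1 CPM at 24 h, 7.89, 9.2 and 9.68 CPM at 72 h and 71.5, 74.8 and 66.0 CPM in controls. The groups did not overlap, and the means were 46.6% of control at 24 h and 12.6% at 72 h, with an adjusted p of 9.93e-06 at 24 h. Uba7 encodes the enzyme that activates ISG15. It had 4.28, 5.18 and 4.23 CPM at 24 h, 2.67, 2.41 and 3.87 CPM at 72 h and 11, 10 and 11.1 CPM in controls, with log2 fold changes of -1.23 ± 0.19 and -1.85 ± 0.19 (adjusted p = 0.000781 and 0.000147).

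Usp18, the protease that removes ISG15 and restrains the interferon receptor, had the largest change of this system. It had 3.98, 6.52 and 4.34 CPM at 24 h, 0.668, 1.05 and 0.774 CPM at 72 h and 18.8, 12.7 and 16.9 CPM in controls. The mean at 72 h was 5.14% of control, and at 24 h the log2 fold change was -1.71 ± 0.22 (adjusted p = 0.000277). The ligases of the system changed less. Trim25, a ubiquitin ligase that acts on RIG-I, had 88.3, 85.9 and 82.6 CPM at 24 h, 64.8, 60.3 and 64.5 CPM at 72 h and 120, 83.6 and 109 CPM in controls. Herc6, the main ISG15 ligase of the mouse, whose exons share 1269 bases with Gm45193 on the same strand, had 22.6, 24.9 and 26.4 CPM at 24 h, 17.9, 18.7 and 22.3 CPM at 72 h and 38.0, 26.4 and 30.5 CPM in controls. At 24 h neither passed, with log2 fold changes of -0.28 ± 0.11 for Trim25 (adjusted p = 0.0851) and -0.36 ± 0.13 for Herc6 (adjusted p = 0.0734). Without control replicate 2 both passed at 24 h, at -0.42 (adjusted p = 0.000134) for Trim25 and -0.48 (adjusted p = 0.00752) for Herc6. Both also passed with upper quartile scaling (adjusted p = 0.038 for Trim25 and 0.0409 for Herc6) and with no filter on low counts (0.0093 and 0.0135). At 72 h Trim25 fell by 0.72 ± 0.11 (adjusted p = 0.00196) and Herc6 by 0.69 ± 0.14 (adjusted p = 0.00855) on the log2 scale.

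**Figure D2:**
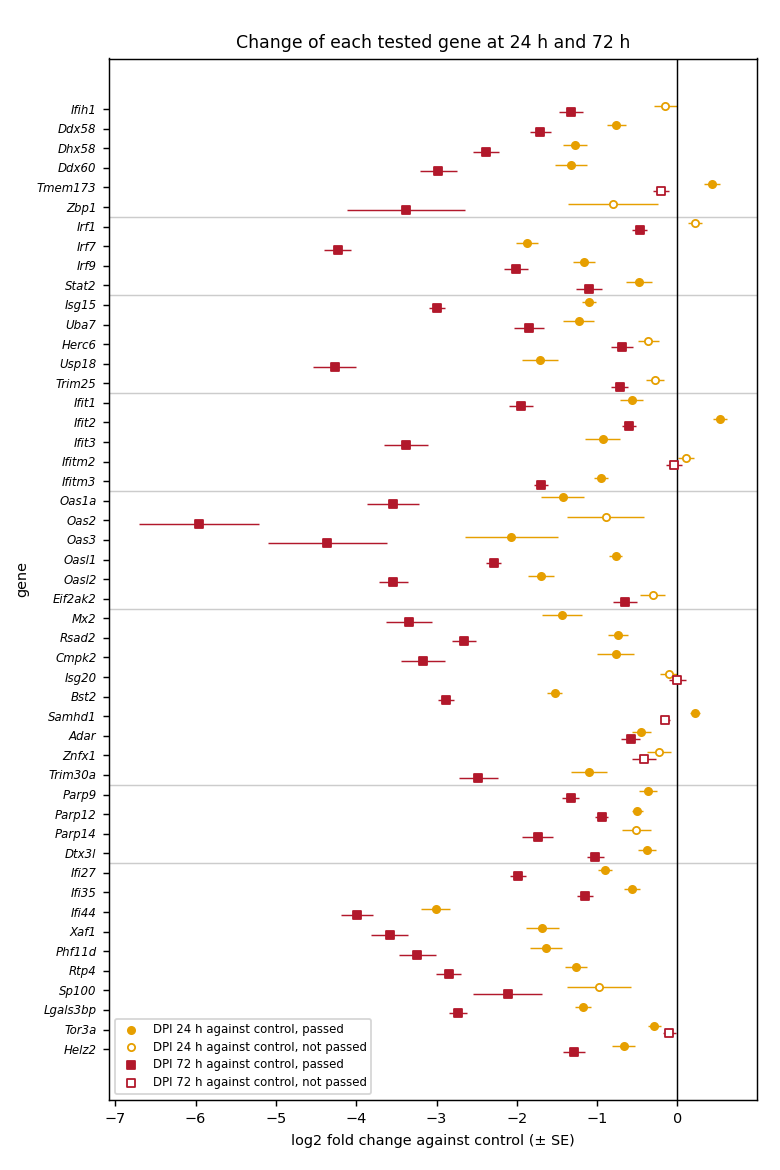
Points give the log2 fold change against control of each of the 49 tested genes at 24 h (circles) and 72 h (squares), bars are ± SE, and open symbols did not pass the test. At 24 h 34 genes lie to the left of 0 and pass, at 72 h 43 do, and the filled circles to the right of 0 are Tmem173, Ifit2 and Samhd1.

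The IFIT proteins bind foreign RNA and block its translation, and the IFITM proteins sit in membranes and hinder the entry of viruses. Ifit2 was the member with the largest rise at 24 h. It had 55.2, 61.8 and 60.3 CPM at 24 h, 27.5, 26.7 and 26.8 CPM at 72 h and 41.9, 35.7 and 45.0 CPM in controls. The 24 h libraries were all above and the 72 h libraries all below the controls, with log2 fold changes of 0.53 ± 0.09 at 24 h (adjusted p = 0.00125) and -0.60 ± 0.09 at 72 h (adjusted p = 0.00167). Ifit1 and Ifit3, which lie beside Ifit2 (chr19:34550694-34576419) on chromosome 19, did not share the rise. Ifit3 had 16.2, 25.9 and 23.7 CPM at 24 h, 2.25, 4.45 and 5.35 CPM at 72 h and 49.5, 34.0 and 41.9 CPM in controls. The mean of Ifit1 was 35.6 ± 3.84 CPM at 24 h, 13.7 ± 2.07 CPM at 72 h and 52.9 ± 9.79 CPM in controls (SD, n = 3 each). At 24 h Ifit1 fell by 0.57 ± 0.14 and Ifit3 by 0.93 ± 0.22 on the log2 scale (adjusted p = 0.0126 and 0.0121), and both calls were lost without DPI 24 h replicate 1 (adjusted p = 0.0591 for Ifit1 and 0.0533 for Ifit3). At 72 h Ifit1 fell by 1.95 ± 0.15 (adjusted p = 1.76e-05), and Ifit3 stood at 9.61% of its control mean.

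Ifitm3 and Ifitm2 are neighbours on chromosome 7 with similar sequences, and the test called the first and not the second, a difference that was not itself tested. Ifitm3 had 54.4, 67.1 and 65.6 CPM at 24 h, 33.8, 39.0 and 38.7 CPM at 72 h and 127, 121 and 114 CPM in controls. It fell at 24 h by 0.95 ± 0.09 and at 72 h by 1.70 ± 0.09 on the log2 scale (adjusted p = 3.33e-05 and 1.86e-06). Ifitm2, which carries a response element core as printed above, had 58.8, 57.2 and 57.9 CPM at 24 h, 43.0, 57.8 and 55.3 CPM at 72 h and 53.4, 54.3 and 53.0 CPM in controls. All 24 h libraries were above all controls, and the 72 h libraries overlapped with them. Its changes of 0.11 ± 0.10 at 24 h and -0.04 ± 0.10 at 72 h did not pass (adjusted p = 0.427 and 0.849). Reads shared between copies as alike as the IFITM and OAS genes may be split between them, so their values are less certain than those of single genes.

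The OAS enzymes make the short messenger that activates the ribonuclease RNase L, and PKR, encoded by Eif2ak2, stops translation when it binds double-stranded RNA. At 24 h 4 of the 6 genes fell and at 72 h all 6 did, the median log2 fold changes being -1.16 and -3.54. Oas3 was tested on the strength of its control level. Oas1a and Oas2 passed the cutoff in all DPI 24 h libraries but not in every DPI 72 h library. Of the 3 other genes 2 fell at 24 h and 3 at 72 h, with medians of -0.77 and -2.29. Oasl2, an OAS-like gene, had 13.5, 17.7 and 19.5 CPM at 24 h, 4.92, 4.39 and 4.84 CPM at 72 h and 63.6, 43.0 and 58.3 CPM in controls. Oasl1, known in the mouse to restrain the translation of Irf7, had 35.3, 36.5 and 36.4 CPM at 24 h, 12.9, 11 and 13.7 CPM at 72 h and 65.8, 58.6 and 59.8 CPM in controls. In both genes the 3 groups were apart, and at 24 h the log2 fold changes were -1.70 ± 0.16 for Oasl2 (adjusted p = 2.92e-05) and -0.77 ± 0.08 for Oasl1 (adjusted p = 6.98e-05). Oas1a averaged 3.34 ± 1.23 CPM at 24 h, 0.773 ± 0.227 CPM at 72 h and 9.02 ± 0.669 CPM in controls (SD, n = 3 each), without overlap.

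Oas2 had the largest fitted change of all at 72 h, on few reads. It had 38, 59 and 57 counts at 24 h, 0, 4 and 0 counts at 72 h and 145, 51 and 84 counts in controls, and its fitted log2 fold change of -5.96 ± 0.75 (adjusted p = 0.000509) depends on how such low counts are treated. Without DPI 72 h replicate 2, the only library of that group with a count above 0, the fitted value was -9.55 (adjusted p = 0.00141). At 24 h its libraries overlapped with controls (-0.89 ± 0.48, adjusted p = 0.208), and it passed without control replicate 2 (-1.21, adjusted p = 0.0416). Oas3 had 3, 13 and 6 counts at 24 h, 3, 0 and 1 counts at 72 h and 32, 30 and 31 counts in controls. Its fall at 24 h (-2.07 ± 0.58, adjusted p = 0.0251) lost its call without controls 1 or 3 or DPI 24 h replicates 1 or 3 (adjusted p from 0.0608 to 0.104). Eif2ak2 had 78.0, 88.0 and 81.1 CPM at 24 h, 62.4, 69.4 and 63.2 CPM at 72 h and 121, 72.8 and 113 CPM in controls. It did not pass at 24 h (-0.31 ± 0.15, adjusted p = 0.165) but did without control replicate 2 (-0.51, adjusted p = 7.43e-05). At 72 h it was called lower (-0.65 ± 0.15, adjusted p = 0.0236), a call lost without controls 1 or 3 or any of the DPI 72 h libraries (adjusted p from 0.0602 to 0.0945).

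The other direct effectors ranged from large changes to Isg20, which had a log2 fold change of 0.00 at 72 h. Bst2 (GRCm38 chr8:71534255-71537456), or tetherin, which ties new virus particles to the cell surface, had 57.3, 72.9 and 65.5 CPM at 24 h, 26.4, 23.8 and 26.5 CPM at 72 h and 184, 203 and 178 CPM in controls. Its mean was 34.7% of control at 24 h and 13.6% at 72 h, and control replicate 2 was here the highest control. Mx2, a dynamin-like GTPase gene that the GRCm38 annotation lists as a polymorphic pseudogene, intact in some strains and not in others, had 44, 39 and 27 counts at 24 h, 10, 10 and 8 counts at 72 h and 91, 105 and 103 counts in controls. It fell by 1.44 ± 0.25 at 24 h and by 3.34 ± 0.29 at 72 h on the log2 scale (adjusted p = 0.00179 and 3.6e-05). Rsad2, or viperin, makes a nucleotide that ends viral RNA chains, and Cmpk2, a nucleotide kinase, lies beside it on chromosome 12. Rsad2, whose promoter is printed above, averaged 26.2 ± 1.94 CPM at 24 h, 6.93 ± 1.22 CPM at 72 h and 43.9 ± 7.09 CPM in controls (SD, n = 3 each). Cmpk2 averaged 9.61 ± 1.78 CPM at 24 h, 1.82 ± 0.879 CPM at 72 h and 16.4 ± 2.3 CPM in controls (SD, n = 3 each). The fall of Cmpk2 at 24 h (-0.77 ± 0.23, adjusted p = 0.0314) lost its call without controls 1 or 3 or DPI 24 h replicates 1 or 3 (adjusted p from 0.0611 to 0.124). Trim30a, a ubiquitin ligase of the mouse that restrains Toll-like receptor signalling, fell by 1.10 ± 0.22 at 24 h and 2.48 ± 0.24 at 72 h on the log2 scale (adjusted p = 0.00408 and 8.63e-05).

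Samhd1, which breaks down the nucleotides needed for viral DNA synthesis, had 169, 169 and 167 CPM at 24 h, 130, 135 and 127 CPM at 72 h and 149, 136 and 150 CPM in controls. It rose at 24 h by 0.22 ± 0.06 on the log2 scale (adjusted p = 0.0208), but the call was lost when any of the 3 DPI 24 h libraries was left out (adjusted p from 0.0673 to 0.0728), with no filter on low counts (0.0505) and in a fit of only the 6 libraries compared (0.0528). At 72 h its libraries were all below the controls (-0.15 ± 0.06, adjusted p = 0.163), and it passed without control replicate 2 (-0.19, adjusted p = 0.0112). Adar, which edits adenosine to inosine in double-stranded RNA and shares 1365 exonic bases with Chrnb2 on the opposite strand, had 66.1, 69.9 and 67.1 CPM at 24 h, 65.6, 54.5 and 64.8 CPM at 72 h and 106, 74.7 and 96.6 CPM in controls. Its falls of 0.45 ± 0.12 at 24 h and 0.58 ± 0.12 at 72 h (adjusted p = 0.0176 and 0.0103) were called, the first not without control replicate 1 or DPI 24 h replicates 1 or 3 (adjusted p from 0.0514 to 0.0643) and the second not without DPI 72 h replicate 2 (adjusted p = 0.0552). Isg20, an exonuclease that degrades RNA, had 11.8, 14.1 and 14.3 CPM at 24 h, 15, 14.5 and 14.1 CPM at 72 h and 13.0, 15.4 and 14.9 CPM in controls, and all groups overlapped. Znfx1, a helicase that senses RNA, averaged 40.4 ± 3.26 CPM at 24 h, 35.6 ± 3.79 CPM at 72 h and 47.6 ± 11.1 CPM in controls (SD, n = 3 each). Its control spread came from replicate 2, without which it passed at 24 h (-0.42, adjusted p = 0.00308) and at 72 h (-0.60, adjusted p = 0.000607).

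**Figure D3:**
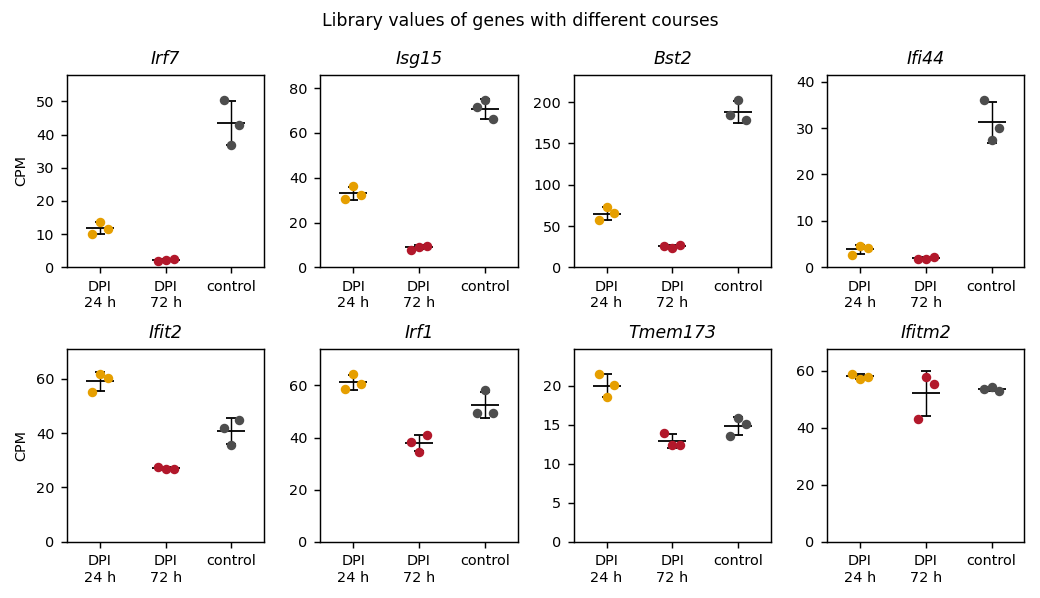
Points are the CPM of single libraries for 8 genes, with the mean and SD of each group of 3, on linear axes that start at 0. Irf7, Isg15, Bst2 and Ifi44 are lower at 24 h and lowest at 72 h, Ifit2, Irf1 and Tmem173 are highest at 24 h, and Ifitm2 stays between 43.0 and 58.8 CPM in all 9 libraries.

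PARP9 and DTX3L act as a pair that joins ADP-ribose and ubiquitin to proteins, and PARP12 and PARP14 attach single ADP-ribose units. The 4 genes changed less at 24 h, with a median log2 fold change of -0.44, and all 4 fell at 72 h, with a median of -1.18. Parp12 had 47.8, 51.5 and 51.9 CPM at 24 h, 39.6, 36.3 and 35.3 CPM at 72 h and 71.5, 65.8 and 76.3 CPM in controls, without overlap, and fell by 0.50 ± 0.07 at 24 h on the log2 scale (adjusted p = 0.000778). Parp14 had 35.6, 40.1 and 37.0 CPM at 24 h, 17.2, 13.8 and 17.1 CPM at 72 h and 68.3, 36.8 and 55.5 CPM in controls. At 24 h it overlapped with control replicate 2 and did not pass (-0.51 ± 0.18, adjusted p = 0.0624), and without that library it did (-0.72, adjusted p = 0.000179), as it did with upper quartile scaling (0.0379), DESeq2 (0.0285) and no filter on low counts (1.85e-05). Parp9 had 34.5, 37.7 and 34.4 CPM at 24 h, 17.8, 19.1 and 17.9 CPM at 72 h and 52.1, 37.8 and 47.9 CPM in controls. Its fall at 24 h (-0.37 ± 0.11, adjusted p = 0.0274) and that of Dtx3l (-0.38 ± 0.11, adjusted p = 0.0296) each lost their call without controls 1 or 3 or DPI 24 h replicates 1 or 3 (adjusted p from 0.0716 to 0.0957), and that of Dtx3l also without DPI 24 h replicate 2 (adjusted p = 0.0592). Parp9 and Dtx3l share 458 exonic bases on opposite strands, so their counts are not independent if strand was ignored.

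Of the 10 other induced genes tested, 9 fell at 24 h and 9 at 72 h, with median log2 fold changes of -1.08 and -2.42. Sp100 passed the cutoff in all controls and DPI 24 h libraries but not in every DPI 72 h library. Of the 9 tested genes besides Sp100, 9 fell at 24 h and 8 at 72 h, with medians of -1.18 and -2.73. Ifi44, a gene of unsettled function used as a marker of interferon exposure, had the largest fall of all at 24 h. It had 2.75, 4.63 and 4.17 CPM at 24 h, 1.82, 1.85 and 2.19 CPM at 72 h and 36.1, 27.5 and 30.0 CPM in controls, which put its means at 12.3% and 6.27% of control. Ifi27, a small protein of the mitochondrial and nuclear membranes, had 72.4, 81.4 and 78.3 CPM at 24 h, 32.9, 34.7 and 41.9 CPM at 72 h and 138, 158 and 138 CPM in controls. Lgals3bp, a secreted glycoprotein, had 30.4, 38.9 and 34.4 CPM at 24 h, 11.7, 12.2 and 11.4 CPM at 72 h and 83.9, 68.2 and 82.6 CPM in controls. In these 3 genes no group overlapped with another, and the falls at 24 h passed at an adjusted p of 1.21e-06 for Ifi44, 6.14e-05 for Ifi27 and 1.86e-05 for Lgals3bp. Helz2, a helicase that also acts as a coactivator of nuclear receptors, had 39.9, 45.9 and 44.1 CPM at 24 h, 29.9, 27.6 and 26.8 CPM at 72 h and 80.4, 51.7 and 74.6 CPM in controls.

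Xaf1, a promoter of cell death, stood at 31.2% of the control mean at 24 h and 8.33% at 72 h. Phf11d stood at 32.1% and 10.5%, and Rtp4, a chaperone of membrane receptors, at 41.6% and 13.8%. Ifi35 changed by less, with 67.7% at 24 h and 45.1% at 72 h. Each of these 4 genes passed at both times, with adjusted p of at most 0.00192, and none overlapped with controls. Sp100, which forms nuclear bodies with PML, had 17, 31 and 28 counts at 24 h, 17, 11 and 5 counts at 72 h and 59, 38 and 51 counts in controls. It did not pass at 24 h (-0.98 ± 0.40, adjusted p = 0.0985), and without control replicate 2 it did (-1.18, adjusted p = 0.0488). Tor3a, an ATPase of the endoplasmic reticulum, had 22.3, 25.6 and 23.7 CPM at 24 h, 29.2, 27.5 and 25 CPM at 72 h and 27.9, 29.0 and 30.5 CPM in controls. It fell at 24 h by 0.29 ± 0.08 on the log2 scale (adjusted p = 0.0303), a call lost without control replicate 3 or DPI 24 h replicates 1 or 3 (adjusted p from 0.0836 to 0.116), and at 72 h it overlapped with controls (-0.10 ± 0.08, adjusted p = 0.562).

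Whether the genes went on falling was tested by setting the 72 h libraries against the 24 h libraries. Of the 49 tested genes, 40 were lower at 72 h than at 24 h, 0 were higher and 9 did not pass, with a median log2 difference of -1.13 and a range of -5.08 to 0.19. Of the 43 that passed the cutoff on low counts in all 9 libraries, 36 were lower and 0 higher, with a median of -0.98. Over all genes, 11.2% were called lower and 10.1% higher in this comparison, with a median of 0.002. At an unadjusted p under 0.05, 1 gene was higher at 72 h than at 24 h and 0 were higher at 72 h than in controls, and DESeq2 and limma voom also called 0 higher in both. The 5 sensors other than Zbp1 and all 4 factors were lower at 72 h than at 24 h. Zbp1, tested on the strength of its control level, was lower too. The largest log2 differences were those of Oas2 at -5.08 ± 0.77 (adjusted p = 0.000883) and Zbp1 at -2.59 ± 0.76 (adjusted p = 0.0334), both on few reads, and Oas2 was at -8.66 without DPI 72 h replicate 2 (adjusted p = 0.00152). They were followed by Usp18 at -2.56 ± 0.28 (adjusted p = 9.49e-05), Ifit3 at -2.45 ± 0.27 (adjusted p = 0.000105), Cmpk2 at -2.40 ± 0.27 (adjusted p = 0.000126) and Irf7 at -2.36 ± 0.18 (adjusted p = 6.49e-06). The calls of 4 genes were lost when certain single libraries were left out. Zbp1 was not called without controls 1 or 3, DPI 24 h replicates 1 or 2 or any DPI 72 h library (adjusted p from 0.0516 to 0.135), and Stat2 without DPI 24 h replicates 2 or 3 or DPI 72 h replicates 1 or 2 (0.0642 to 0.0851). Uba7 (-0.61 ± 0.20, adjusted p = 0.0493) was not called without controls 1 or 3, any DPI 24 h library or DPI 72 h replicates 1 or 2 (0.0666 to 0.163), nor with upper quartile scaling, no filter, a filter at 1 CPM, limma voom or only the 6 libraries compared (0.05 to 0.0785). Trim25 (-0.44 ± 0.11, adjusted p = 0.0171) was not called without DPI 24 h replicates 1 or 2 or DPI 72 h replicates 2 or 3 (0.0511 to 0.0686). Herc6 and Eif2ak2 did not pass, and without control replicate 2 both did (adjusted p = 0.0327 and 0.000807). Ifi44, which had fallen furthest at 24 h, differed by -0.98 ± 0.22 (adjusted p = 0.00878, and 0.0704 with limma voom), and Isg15 by -1.89 ± 0.10 (adjusted p = 7.18e-07).

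The genes that start the pathway were followed in the same libraries. Of 21 interferon genes, type I, II and III, none passed the filter, and their counts summed to 7, 8 and 6 at 24 h, 3, 2 and 0 at 72 h and 6, 6 and 1 in controls. Ifnb1, the interferon-beta gene of fibroblasts, had 0 counts at 24 h in all libraries, 0, 1 and 0 at 72 h and 0, 4 and 0 in controls. The receptor chains of type I interferon passed in neither comparison with control. Ifnar1 averaged 89.2 CPM at 24 h, 89.5 CPM at 72 h and 92.3 CPM in controls, with log2 fold changes of -0.05 ± 0.07 and -0.04 ± 0.07 (adjusted p = 0.646 and 0.767). Ifnar2 averaged 27.7 CPM at 24 h, 28.2 CPM at 72 h and 31.7 CPM in controls, with changes of -0.20 ± 0.10 and -0.17 ± 0.10 (adjusted p = 0.186 and 0.365). Ifngr1, a chain of the interferon-gamma receptor, was the single receptor gene of 5 tested that was called at 24 h, with 68.3 CPM at 24 h, 42.4 CPM at 72 h and 47.0 CPM in controls (0.54 ± 0.06, adjusted p = 6.05e-05).

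The kinase genes Jak1 and Tyk2 and the factor gene Irf3 did not pass against control at either time, with changes of 0.02 and 0.14 for Jak1, 0.23 and -0.09 for Tyk2, and -0.09 and 0.02 for Irf3. Of 18 tested adaptors and kinases of nucleic acid sensing, 2 fell and 5 rose at 24 h, and 1 fell at 72 h, where 12.3% of all genes fell and 12.4% rose at 24 h and 3.83% fell at 72 h. Tbk1, the kinase that phosphorylates IRF3, rose by 0.32 ± 0.07 on the log2 scale at 24 h (adjusted p = 0.00939), while Mavs, the adaptor of RIG-I and MDA5, did not pass (-0.24 ± 0.09, adjusted p = 0.0678, but 0.0367 with upper quartile scaling). Mb21d1, which encodes the DNA sensor cGAS, fell by 0.32 ± 0.08 at 24 h (adjusted p = 0.013), a call lost without DPI 24 h replicate 2 (adjusted p = 0.0561). Tlr7, a receptor for single-stranded RNA, rose by 2.07 ± 0.30 at 24 h from a low level (adjusted p = 0.000615), with means of 3.46 CPM at 24 h, 0.833 CPM at 72 h and 0.818 CPM in controls. Counts of these small lists depended on single libraries: the number of adaptors that fell at 24 h was 0 without DPI 24 h replicate 2 and 4 without control replicate 2. Of 10 negative regulators, 1 fell and 1 rose at 24 h, again near the shares of all genes. The one that fell, Pias3, was not called without DPI 24 h replicate 2 (adjusted p = 0.0834), and Ptpn2 was called lower without control replicate 1 (adjusted p = 0.0395). Of 12 genes that clear nucleic acids 3 fell and 0 rose (1 fell without DPI 24 h replicates 1 or 3, and 5 without control replicate 2).

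**Figure D4:**
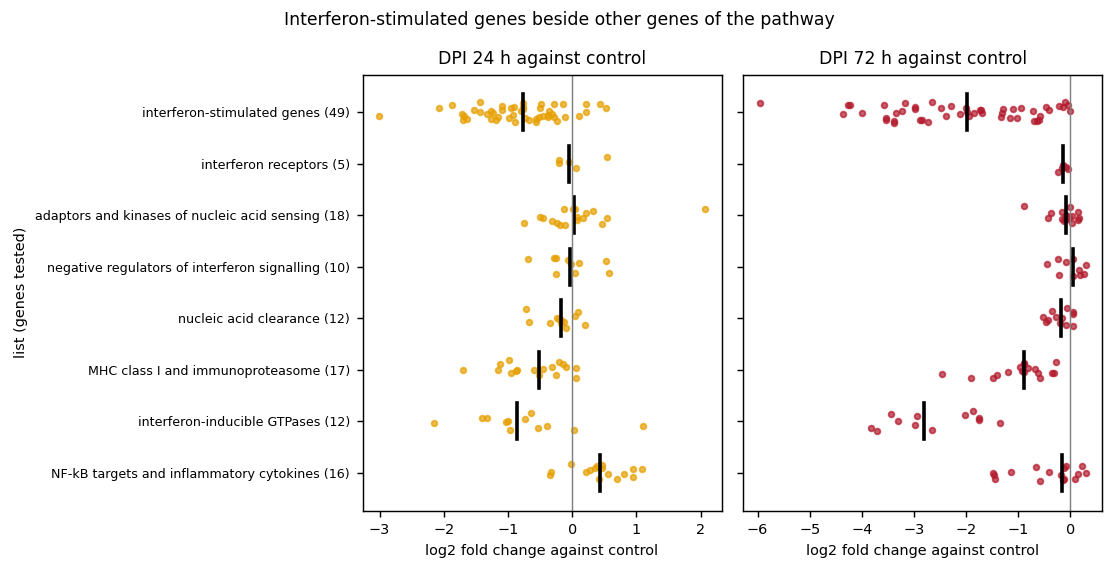
Each point is the log2 fold change of 1 tested gene at 24 h (left) and at 72 h (right), grouped by list with the number tested, and the black bar is the list's median. At 72 h the medians of interferon-stimulated genes (-1.99), interferon-inducible GTPases (-2.80) and MHC class I genes (-0.90) lie left of 0, and those of receptors and adaptors lie near 0.

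Other families that interferon induces were lower as well. Of 12 tested interferon-inducible GTPases, 8 fell and 1 rose at 24 h, with a median log2 fold change of -0.86, and all 12 fell at 72 h, with a median of -2.80. Of all genes, 12.3% fell and 12.4% rose at 24 h, and 3.83% fell at 72 h. The 72 h calls of Iigp1, Ifi47 and Tgtp1 were each lost without certain single libraries (adjusted p from 0.0507 to 0.0576). The 24 h call of Iigp1 was lost in the same way (0.0518 to 0.0955). Gbp3, a guanylate-binding protein gene, averaged 10.3 CPM at 24 h, 3.28 CPM at 72 h and 25.9 CPM in controls. Gvin1, a very large GTPase gene, averaged 179 CPM at 24 h, 10.9 CPM at 72 h and 83.6 CPM in controls. Its rise at 24 h (1.10 ± 0.27, adjusted p = 0.0124) lost its call without DPI 24 h replicate 2 (0.92, adjusted p = 0.0609), and at 72 h it fell by 2.95 ± 0.31 on the log2 scale (adjusted p = 0.000163). Of 17 genes of MHC class I presentation and the immunoproteasome, 10 fell at 24 h and 15 at 72 h and 0 rose, with medians of -0.51 and -0.90. At 72 h the calls of Psmb9, Psmb10 and Erap1 were each lost without certain single libraries (adjusted p from 0.0521 to 0.154). H2-K1, a class I heavy chain, averaged 208 CPM at 24 h, 213 CPM at 72 h and 404 CPM in controls, with log2 fold changes of -0.95 ± 0.09 and -0.92 ± 0.09 (adjusted p = 2.67e-05 and 7.82e-05). Its level at 72 h differed from that at 24 h by 0.03 ± 0.09 (adjusted p = 0.857).

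A list of NF-kB targets and inflammatory cytokines was counted in the same way, and it includes Cxcl10, which interferon also induces. Of 16 tested, 10 rose and 0 fell at 24 h, with a median log2 fold change of 0.43, while 1 rose and 5 fell at 72 h, with a median of -0.16. Of all genes, 12.4% rose and 12.3% fell at 24 h, and 4.73% rose and 3.83% fell at 72 h. That 0 of the list fell at 24 h depended on the setting. Ccl5 was called lower there without control replicate 3 (-0.45, adjusted p = 0.0104) and with upper quartile scaling (-0.37, adjusted p = 0.0336). It was also called lower with no scaling factor (adjusted p = 0.0382) and with no filter on low counts (0.0328). Between the times, 14 of the 16 were lower at 72 h than at 24 h and 0 higher, with a median log2 difference of -0.89. Of all genes, 11.2% were lower and 10.1% higher. The difference between the genes of this list and the interferon-stimulated genes was not tested. The gene that rose at 72 h was Nfkb1, a subunit of NF-kB (0.22 ± 0.05, adjusted p = 0.0211), a call lost without control replicate 3, DPI 24 h replicate 3 or any DPI 72 h library (adjusted p from 0.0507 to 0.0918). Ccl2, which attracts monocytes, averaged 33.9 CPM at 24 h, 7.27 CPM at 72 h and 15.9 CPM in controls, with changes of 1.09 ± 0.16 and -1.14 ± 0.17 (adjusted p = 0.000639 and 0.00189). Tnfaip3, which restrains NF-kB, averaged 37.8 CPM at 24 h, 17.9 CPM at 72 h and 19.6 CPM in controls, and rose by 0.95 ± 0.09 at 24 h (adjusted p = 3.93e-05). Cxcl10, a chemokine gene that both interferon and NF-kB induce, averaged 67.4 CPM at 24 h, 20.1 CPM at 72 h and 55.5 CPM in controls. Its small rise at 24 h (0.28 ± 0.09, adjusted p = 0.0433) lost its call without controls 1 or 3, any DPI 24 h library or DPI 72 h replicate 2 (adjusted p from 0.0651 to 0.185) and with upper quartile scaling (0.0978), and at 72 h it fell by 1.46 ± 0.10 (adjusted p = 6.18e-06).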

How the data were processed

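Libraries were made from total RNA of MAFs with an Illumina TruSeq kit, per the labels' protocols. RSEM, STAR, edgeR, limma, cutadapt and Trim Galore, with the build GRCm38, appear in the submitters' processing notes, which give neither their versions nor their roles. The strand setting, the annotation release and any rounding were not given in the sources used here. The authors deposited whole-number counts per Ensembl gene. A second table, named as normalized, held the same counts for 17722 genes (all 159498 values equal) and was not used further. Symbols, coordinates and exonic lengths came from the GENCODE annotation of GRCm38, and 105 IDs without a symbol held 0.009% of counts.

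Counts were filtered with filterByExpr (14088 genes kept, at least 99.87% of counts), scaled by TMM (factors 0.984 to 1.024) and fitted over all 9 libraries with 1 mean per group in edgeR 4.0.16 (R 4.3.3; glmQLFit, glmQLFTest, two-sided), with Benjamini-Hochberg adjustment over the genes kept. SE is the log2 fold change divided by the root of F. The fit was tested on simulated data. No pair of replicates was a copy (chi-square per degree of freedom 3.62 to 31.3). With 3 libraries against 3, an exact permutation p cannot go below 0.1.

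The members and lists were chosen with earlier results of these data known. Values per library are given for all sensors and factors and, in each other role, for the 3 genes with the highest mean CPM and those with the largest and smallest change at 72 h. Other members are named by choice. From the pathway lists, genes were named among those with the smallest p, together with a fixed set of signalling genes; 1 pathway list is not reported here. Alternatives were other scalings, filters, tools (DESeq2 1.42.0, limma 3.58.1 voom), samples, thresholds, a replicate block and each library left out. The search for the interferon-gamma activated site was added later.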

Additional observations from a re-analysis of the deposited data

Results flagged for a closer look

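Expression differed between the exposure times for 40 of the 49 tested interferon-stimulated genes, by edgeR's test of the 72 h libraries against the 24 h libraries (adjusted p at most 0.0493), and in all 40 the level at 72 h was the lower. Of all genes tested, 11.2% were called lower and 10.1% higher in that comparison. Of these 40 interferon-stimulated genes, 36 passed the cutoff on low counts in all 9 libraries. The calls of Zbp1, Stat2, Uba7 and Trim25 were lost without certain single libraries, and the value of Oas2 rests on few reads. Values are log2 differences, 72 h minus 24 h. Among sensors they were -1.17 for Ifih1, -0.95 for Ddx58, -1.10 for Dhx58, -1.65 for Ddx60, -0.64 for Tmem173 and -2.59 for Zbp1. The factors had -0.69 for Irf1, -2.36 for Irf7, -0.86 for Irf9 and -0.62 for Stat2. The ISG15 system had -1.89 for Isg15, -0.61 for Uba7, -2.56 for Usp18 and -0.44 for Trim25. IFIT and IFITM genes had -1.38 for Ifit1, -1.13 for Ifit2, -2.45 for Ifit3 and -0.75 for Ifitm3. OAS genes had -2.11 for Oas1a, -5.08 for Oas2, -1.53 for Oasl1 and -1.84 for Oasl2. Other direct effectors had -1.90 for Mx2, -1.92 for Rsad2, -2.40 for Cmpk2, -1.35 for Bst2, -0.37 for Samhd1 and -1.38 for Trim30a. PARP and DTX3L genes had -0.96 for Parp9, -0.44 for Parp12, -1.23 for Parp14 and -0.65 for Dtx3l. Other induced genes had -1.09 for Ifi27, -0.59 for Ifi35, -0.98 for Ifi44, -1.91 for Xaf1, -1.61 for Phf11d, -1.59 for Rtp4, -1.55 for Lgals3bp and -0.62 for Helz2. With no controls matched in time, a difference in the effect of DPI and one of time in culture cannot be told apart.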

How the results depend on the processing

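No member called in the main comparisons turned its direction under the alternatives run. Among members not called, Ifih1 at 24 h was at 0.01 without control replicate 1 (-0.15 with it), and Ifitm2 at 72 h was at 0.08 without DPI 72 h replicate 1 (-0.04 with it). With any library left out, 25 to 41 members were lower and 1 to 4 higher at 24 h (1 without DPI 24 h replicate 1), 40 to 45 lower at 72 h, and 36 to 42 lower at 72 h than at 24 h, with medians of -0.91 to -0.69, -2.07 to -1.92 and -1.18 to -1.09. Requiring a log2 change of at least 1 left 18 lower and 0 higher at 24 h, and 25 lower at 72 h than at 24 h. Requiring an adjusted p under 0.01 left 1 higher at 24 h. Of 37 calls at 24 h, 26 held in every fit with a library left out, of 43 at 72 h 40 did, and of 40 between the times 36 did. Counts over all genes at 72 h were less stable: 540 were lower and 666 higher, against 311 to 865 and 425 to 1100 with a library left out, highest without control replicate 2. A fit of only the 6 DPI libraries called 2409 lower and 2251 higher at 72 h than at 24 h, against 1574 and 1427. A log2 change of at least 1 left 248 lower and 251 higher genes at 24 h, and 284 lower at 72 h than at 24 h.

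Libraries with the same number in different groups did not deviate together (correlations of -0.09 to 0, against -0.08 to 0.09 for unlike numbers). No pairing by number was seen, which with 3 libraries per group does not exclude it. With the replicate block 30 members were lower at 24 h and 42 at 72 h. It ended the calls of Oas3 (adjusted p = 0.0552), Cmpk2 (0.0685), Parp9 (0.0553) and Tor3a (0.0569) at 24 h, of Eif2ak2 (0.0583) at 72 h, and of Zbp1 (0.0685) and Uba7 (0.0762) between the times. Low depth limits 12 members with fewer than 20 counts in at least 1 library, of which Zbp1, Mx1 and Epsti1 had fewer than 20 in every library. The cause of the changed calls was not tested.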
